A study of Mus musculus with 4 samples.

Results

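Transforming growth factor beta (TGF-beta) is one of the signals that pass between the oocyte, the granulosa cells (GCs) around it and the theca cells outside the follicle wall. The 10 genes described here encode its ligands (Tgfb1, Tgfb2, Tgfb3), its receptors (Tgfbr1, Tgfbr2), the SMAD proteins of its signal (Smad2, Smad3, Smad4), the inhibitory Smad7 and the latency protein Ltbp1. They were listed by symbol and not by a rule on their values, though with earlier results of these data known. Of 55385 genes in the count table, 10 of 10 were found. GCs came from preantral follicles of Kunming mice aged 12 to 14 days, grown in vitro for 6 days. Bulk RNA sequencing gave 2 libraries of the NT4 group (neurotrophin-4, a ligand of the receptor TRKB, in the medium), called NT4 1 and NT4 2, and 2 of the Control group (medium alone), called Control 1 and Control 2. Both groups were cultured in α-MEM with fetuin, insulin, transferrin, selenium, albumin and FSH, and the study describes the 2 GC samples of a group as coming from independent experiments. How many follicles or mice stand behind each GC library is not given in the sources used here.

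The ligands are secreted in a latent form, in which the mature dimer stays bound to its own propeptide, and LTBP1 ties this complex to the extracellular matrix until integrins or proteases release the ligand. The freed ligand binds TGFBR2, a kinase that phosphorylates TGFBR1, which in turn phosphorylates SMAD2 and SMAD3. These join SMAD4, enter the nucleus and act on target genes, among them Smad7, whose product blocks the receptors. In GCs, SMAD2 and SMAD3 also carry the signals of activin and of the oocyte factor GDF9, so their messages are shared with other ligands of the family.

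The libraries held 49520092 to 78704020 counts, and 19259 genes passed the filter on low counts. All 10 genes were among them. Values are given in CPM (counts scaled to a library total of 1000000), and differences between the groups are log2 fold changes (NT4 relative to Control) from edgeR's quasi-likelihood test, with their standard error (SE). Of the labelled cell type, 10 of 10 GC markers were present, led by Inha at 5855 to 8687 CPM. Oocyte markers summed to 67.2 to 94.7 CPM and theca and stroma markers to 683 to 919 CPM. Endothelial markers summed to 24.2 to 33.3 CPM, macrophage markers to 2.278 to 4.001 CPM and markers of the ovarian surface to 0.637 to 1.02 CPM, and of the last Krt19 and Upk1b were at 0 counts in all 4 libraries. Levels of RNA in such bulk samples do not tell fewer cells of a type from less RNA per cell.

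The question was whether neurotrophin-4 (NT-4) in the medium went with a different expression of these genes in GCs. No difference was detected in any of the 10. By edgeR's quasi-likelihood test 0 of 10 passed an adjusted p of 0.05, and the adjusted p was 0.9999 for each. Over all genes 0 of 19259 passed (0%), while the smallest adjusted p of any gene was 0.130. The study's own criterion, a fold of 2 with an unadjusted p under 0.05, was met by 0 of 10 against 1.08% of all genes tested, and an unadjusted p under 0.05 alone by 0 of 10 against 1.99%. At an adjusted p of 0.05 the DESeq2 Wald test called 0 of 10 (62 of 24477 genes, 0.253%), edgeR's exact test 0 of 10 (57 of 19259, 0.296%) and limma voom 0 of 10 (0 of 19259, 0%). Fold changes ran from −0.18 for Smad7 to 0.20 for Tgfb1, 3 above 0 and 7 below, with a median of −0.06 against 0.0045 over all genes tested. The median size of the change, without its sign, was 0.12 in the 10 genes and 0.15 over all genes.

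**Figure D1:**
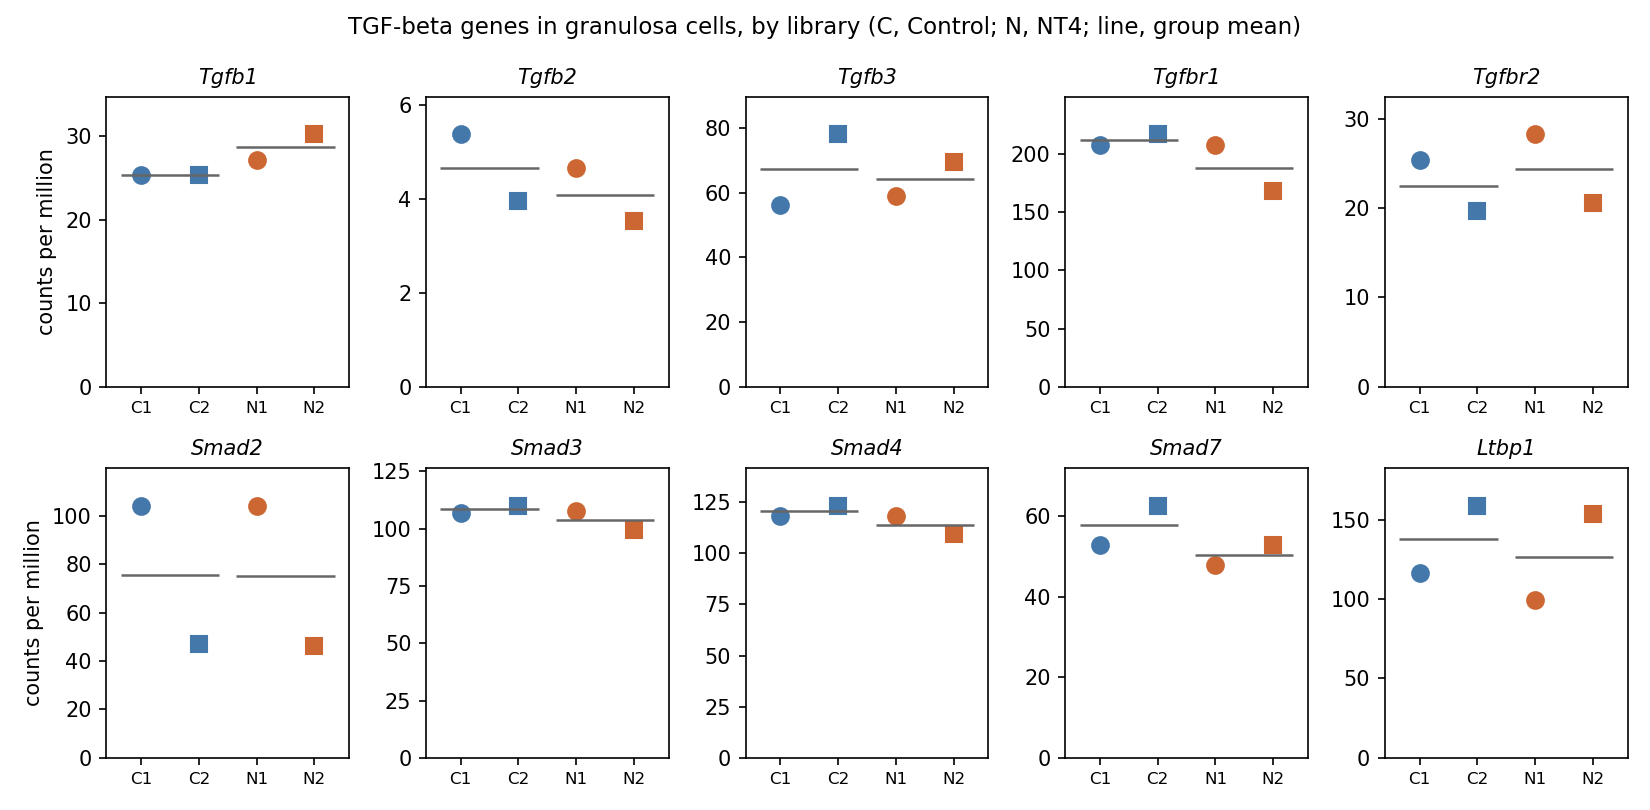
Level of each of the 10 genes in CPM (vertical axes, each starting at 0) in Control 1, Control 2, NT4 1 and NT4 2 (blue, Control; orange, NT4; circles, libraries numbered 1; squares, libraries numbered 2; lines, group means of 2 libraries). Smad2 is at 104 CPM in both libraries numbered 1 and at 46.9 and 46.1 CPM in those numbered 2, with the same group means, while Smad3 and Smad4 hardly vary.

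Among the ligands, Tgfb3 (ENSMUSG00000021253, GRCm38 chromosome 12, 86056745 to 86079041) gave the most counts. It gave 56.3 CPM in Control 1 and 78.0 in Control 2, with 58.8 in NT4 1 and 69.4 in NT4 2. Both NT4 values lay between the Control values, and the fold change was −0.05 (SE 0.21).

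Tgfb1 (ENSMUSG00000002603, chromosome 7, 25687002 to 25705077), the founding ligand of the family, stood at 25.3 and 25.4 CPM in the Control libraries 1 and 2, and at 27.2 and 30.2 CPM in NT4 1 and NT4 2. Both NT4 libraries were above both Control libraries, the only such case among the 10 genes, as it was for 11.9% of all genes tested. Its fold change of 0.20 (SE 0.15) had a 95% confidence interval from −0.18 to 0.58.

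Tgfb2 (ENSMUSG00000039239, chromosome 1, 186622792 to 186705989) was the least abundant ligand, with 266 to 291 counts per library. Control 1 gave 5.37 CPM and Control 2 3.95 CPM, while NT4 1 gave 4.65 and NT4 2 3.53 CPM. The groups overlapped, and in each of them the library numbered 1 was the higher. The fold change was −0.17 (SE 0.28).

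Of the receptors, Tgfbr1 (ENSMUSG00000007613, chromosome 4, 47353222 to 47414931), the type I kinase that phosphorylates SMAD2 and SMAD3, gave 208 CPM in Control 1 and 217 in Control 2, with 208 in NT4 1 and 168 in NT4 2. NT4 2 stood below the other libraries, which were within a narrow range. Its fold change of −0.16 (SE 0.14) moved to −0.03 when NT4 2 was left out and to −0.30 when NT4 1 was.

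Tgfbr2 (ENSMUSG00000032440, chromosome 9, 116084293 to 116175360), the type II receptor that binds the ligand first, stood at 25.3 and 19.6 CPM in the Control libraries 1 and 2, and at 28.2 and 20.6 CPM in NT4 1 and NT4 2. The groups overlapped, with the library numbered 1 higher in each. Its fold change was 0.14 (SE 0.22).

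The 2 receptor-regulated SMADs differed in their spread between libraries. Smad2 (ENSMUSG00000024563, chromosome 18, 76241580 to 76310963) gave 104 CPM in Control 1 and 46.9 in Control 2, with 104 in NT4 1 and 46.1 in NT4 2. Each group held a high and a low library at nearly equal values. The fold change between the groups was 0.01 (SE 0.50), with a 95% confidence interval from −1.24 to 1.26. With the library number added to the model the interval was −0.23 to 0.25.

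Smad3 (ENSMUSG00000032402, chromosome 9, 63646767 to 63757994), which binds DNA directly, stood at 107 and 110 CPM in the Control libraries 1 and 2, and at 108 and 99.5 CPM in NT4 1 and NT4 2. The highest library was 1.11 times the lowest. Its fold change was −0.05 (SE 0.11), with a 95% confidence interval from −0.33 to 0.24, or 0.79-fold to 1.18-fold. With group alone in the model this was the narrowest interval of the 10 genes.

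Smad4 (ENSMUSG00000024515, chromosome 18, 73639009 to 73703780), the partner that SMAD2 and SMAD3 share with the SMADs of the BMP pathway, was as steady. It gave 118 CPM in Control 1 and 123 in Control 2, with 118 in NT4 1 and 110 in NT4 2. Both NT4 libraries were below both Control libraries in CPM, by 0.03 CPM at the nearest pair, and the groups overlapped after TMM scaling. The fold change was −0.06 (SE 0.11).

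Smad7 (ENSMUSG00000025880, chromosome 18, 75367529 to 75395935), the inhibitory SMAD and itself a target of the pathway, stood at 53.0 and 62.7 CPM in the Control libraries 1 and 2, and at 47.9 and 52.9 CPM in NT4 1 and NT4 2. In CPM both NT4 libraries again lay below both Control libraries, by 0.06 CPM at the nearest pair, and after TMM scaling they overlapped. So 2 of 10 genes lay lower in both NT4 libraries, against 14.6% of all genes tested. The fold change of Smad7 was −0.18 (SE 0.16).

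Ltbp1 (ENSMUSG00000001870, chromosome 17, 75005568 to 75392512), which holds the latent ligands in the matrix, gave 117 CPM in Control 1 and 159 in Control 2, with 99.3 in NT4 1 and 153 in NT4 2. The library numbered 2 was the higher in both groups, and the groups overlapped. Its fold change was −0.10 (SE 0.27), and it took either sign with a library left out, from −0.47 without NT4 2 to 0.19 without NT4 1.

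**Figure D2:**
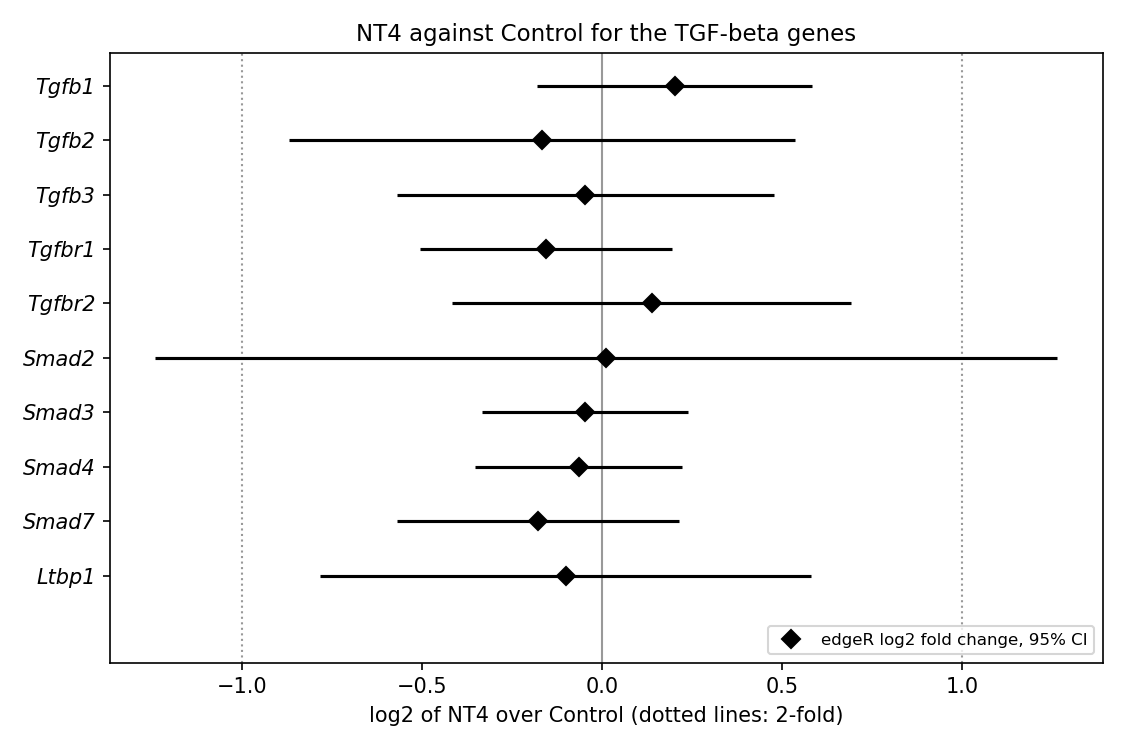
Log2 fold change of NT4 over Control (horizontal axis) for the 10 genes from edgeR's quasi-likelihood test, with 95% confidence intervals (lines) and a 2-fold change marked by dotted lines. Every interval spans 0. With group alone in the model, as drawn, the interval of Smad2 is the widest (−1.24 to 1.26) and that of Smad3 the narrowest (−0.33 to 0.24). With the library number added, that of Smad2 is −0.23 to 0.25.

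The libraries of a group differed more in several of these genes than the groups did, and they did so by their number. After TMM scaling Smad2 was 2.19 times as high in Control 1 as in Control 2, and 2.20 times as high in NT4 1 as in NT4 2. A gap of more than 2-fold in this direction in both groups was found in 2.72% of all genes tested, most of them at lower levels. Among the 5845 genes with at least 0.5 times the mean CPM of Smad2, a limit chosen after its values were seen, there were 17 (0.291%). Counts of Smad2 were 5146 and 6454 in the shallower libraries, numbered 1, and 3460 and 3630 in the deeper ones, numbered 2.

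Ltbp1 and Tgfb3 were split the other way. Ltbp1 was 1.38 times as high in Control 2 as in Control 1 and 1.59 times in NT4 2 as in NT4 1. For Tgfb3 these ratios were 1.40 and 1.21. Thus a ligand and the protein that tethers it were both higher in the libraries numbered 2, as were 21.8% of all genes tested.

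Tgfb2 and Tgfbr2 followed the direction of Smad2. Tgfb2 was 1.34 times as high in Control 1 as in Control 2 and 1.28 times in NT4 1 as in NT4 2, and for Tgfbr2 the ratios were 1.28 and 1.34. Together with Smad2 they made 3 of 10 genes with both libraries numbered 1 above both numbered 2, where 26.7% of all genes tested showed this. The 5 genes split by number were therefore close to the share of such genes across the transcriptome.

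Depth and GC markers moved with the number too. The libraries numbered 1 held 49520092 and 61980073 counts, and those numbered 2 held 73743901 and 78704020. Of the 10 GC markers, 8 were higher in both libraries numbered 2 (21.8% of all genes tested), such as Inhba at 2157 and 2410 CPM against 1607 and 1211, and the other two, Amh and Kitl, were lower in both (26.7% of all genes tested). Amh was at 303 CPM in Control 1 and 393 in NT4 1 against 151 in Control 2 and 89.6 in NT4 2. The labels do not say what the number stands for, so depth and whatever else the number marks cannot be told apart, and their part in the values of the TGF-beta genes was not tested.

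**Figure D3:**
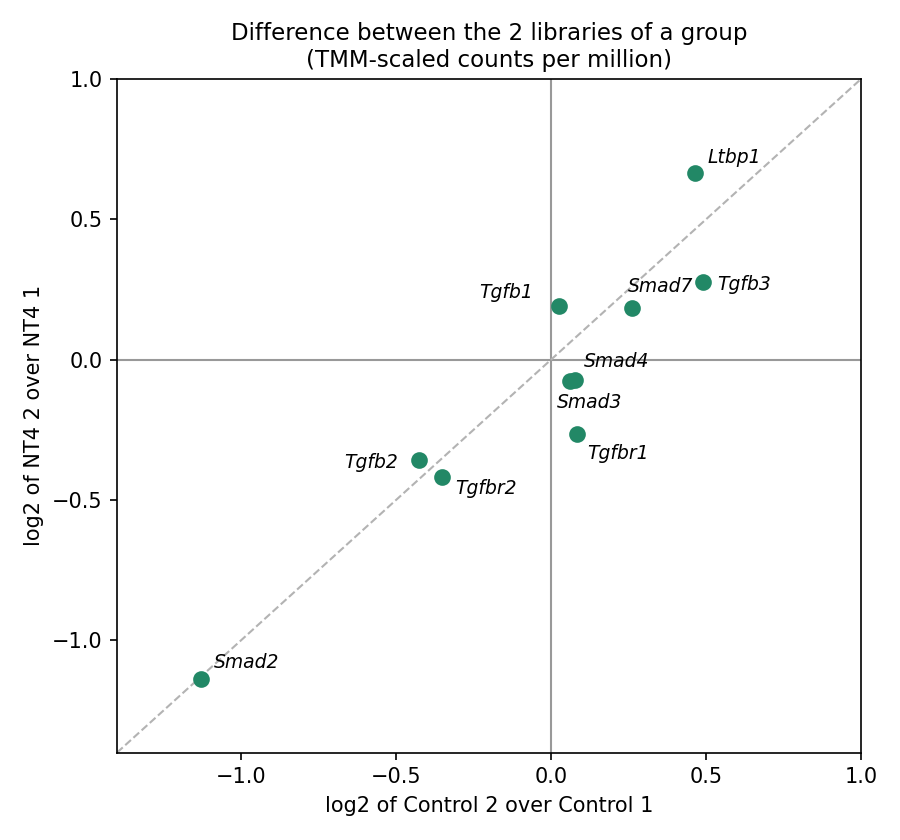
Log2 ratio of the library numbered 2 over that numbered 1, within Control (horizontal axis) and within NT4 (vertical axis), for the 10 genes in TMM-scaled CPM, with a dashed line where both ratios are equal. Smad2 lies far below 0 in both groups at nearly the same value, Tgfb2 and Tgfbr2 lie below 0, Ltbp1 and Tgfb3 lie above 0, and Smad3 and Smad4 lie near 0.

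Promoters of 3 genes of this split are printed here so that their sequence can be set beside the values. They are the 250 bases before the RefSeq start (GRCm38.p6), read 5′ to 3′ on the strand of the gene. The first of 2 Ltbp1 entries is shown (chr17:75005279-75005528, plus strand), with Tgfb2 (chr1:186705990-186706239, minus strand) and Tgfbr2 (chr9:116175364-116175613, minus strand). Capitals mark TGACG, the half-site of the cAMP response element TGACGTCA, and CAGAC, the core of a SMAD binding element, searched on both strands.
Ltbp1: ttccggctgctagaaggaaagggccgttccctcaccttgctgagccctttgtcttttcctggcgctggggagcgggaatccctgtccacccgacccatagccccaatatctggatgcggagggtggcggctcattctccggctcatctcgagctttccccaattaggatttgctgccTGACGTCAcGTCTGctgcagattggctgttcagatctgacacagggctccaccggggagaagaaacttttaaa
Tgfb2: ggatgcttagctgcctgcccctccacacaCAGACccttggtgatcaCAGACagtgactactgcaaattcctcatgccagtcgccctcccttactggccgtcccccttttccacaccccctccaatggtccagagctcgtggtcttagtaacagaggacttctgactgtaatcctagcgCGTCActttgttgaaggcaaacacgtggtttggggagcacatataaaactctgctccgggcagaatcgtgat
Tgfbr2: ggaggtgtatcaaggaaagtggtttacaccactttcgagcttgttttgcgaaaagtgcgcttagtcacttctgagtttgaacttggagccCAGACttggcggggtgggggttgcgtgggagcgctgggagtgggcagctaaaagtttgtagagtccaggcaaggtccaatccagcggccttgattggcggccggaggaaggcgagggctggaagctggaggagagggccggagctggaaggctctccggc

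The Ltbp1 window shown held the whole cAMP response element, which begins 73 bases before the start and is made of 2 overlapping half-sites, one on each strand. Of 32851 mouse promoter windows of this length, 1.55% held the whole element, 17.8% held the half-site and 42.2% held the SMAD core. The SMAD core was found 1 time in the Ltbp1 window, 2 times in that of Tgfb2 and 1 time in that of Tgfbr2, and the half-site 1 time in that of Tgfb2. The second Ltbp1 entry (chr17:75178531-75178780, plus strand) held no cAMP element or half-site and 2 SMAD cores. Tgfbr1 also has 2 entries, of which the first held none of these patterns and the second 1 SMAD core, and the windows of Tgfb1 and Smad3 held none. Tgfb3 was not matched to a window. Such matches are a description of the sequence and not evidence of a bound factor.

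To set the genes against each other, CPM was divided by the length of all exons of a gene joined (CPM per kb). By this level Smad4 and Tgfbr1 were the most abundant, at 31.6 ± 1.5 and 30.6 ± 3.3 CPM per kb (SD, n = 4 libraries), above 90.3% of all genes tested in the case of Tgfbr1. Tgfb3 at 19.4 ± 3.0 and Smad3 at 19.1 ± 0.83 came next. Then followed Ltbp1 at 12.3 ± 2.7, Smad7 at 12.0 ± 1.4, Smad2 at 8.57 ± 3.78, Tgfb1 at 5.36 ± 0.46, Tgfbr2 at 2.86 ± 0.50 and Tgfb2 at 0.76 ± 0.14.

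In this order, the ranges over the 4 libraries overlapped for Smad4 and Tgfbr1, for Tgfb3 and Smad3, and from Ltbp1 through Smad7 and Smad2 to Tgfb1, so these neighbours did not differ beyond their spread. The ranges were apart between Tgfbr1 and Tgfb3, Smad3 and Ltbp1, Tgfb1 and Tgfbr2, and Tgfbr2 and Tgfb2. With the longest transcript or the mean transcript length in place of the joined exons, Smad4 and Tgfbr1 stayed the highest pair and Tgfbr2 and Tgfb2 the lowest in that order, while Tgfb3 moved from place 3 to places 5 and 8.

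**Figure D4:**
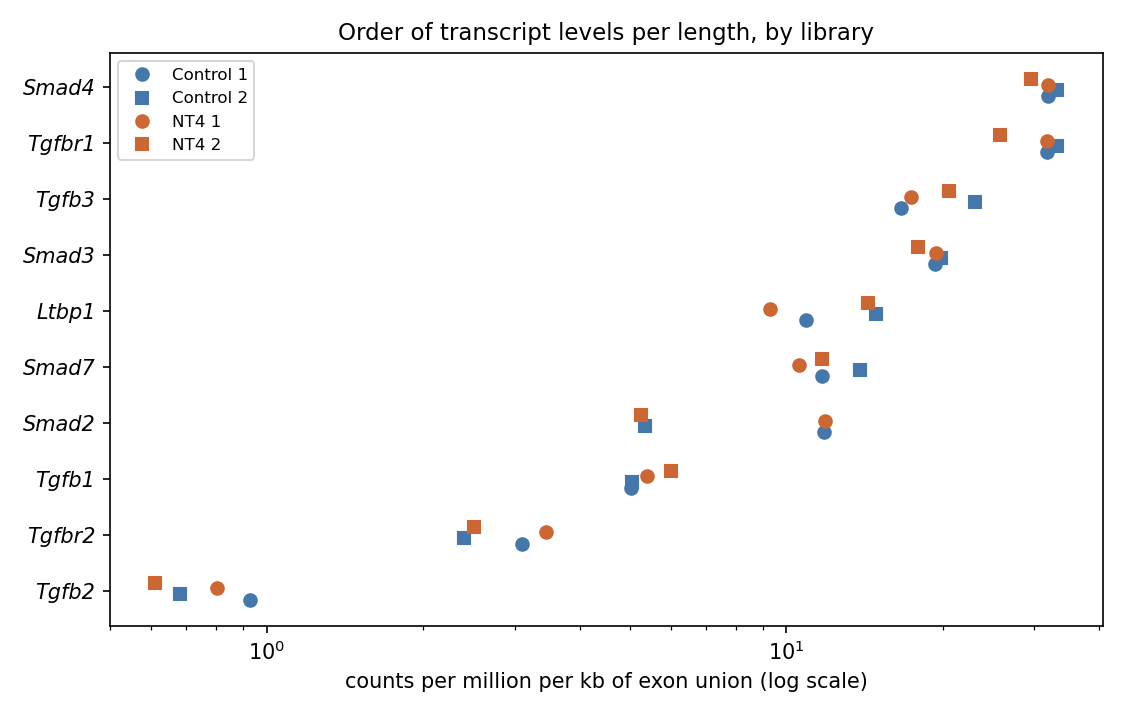
Level of the 10 genes in CPM per kb of joined exons (horizontal axis, log scale) in each of the 4 libraries (blue, Control; orange, NT4; circles, number 1; squares, number 2), ordered by mean. The genes run from 31.6 CPM per kb for Smad4 to 0.76 for Tgfb2, and the 2 squares of Smad2 sit beside those of Tgfb1 while its 2 circles sit beside Smad7.

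Levels per length were then set against each other within the pathway. Tgfbr1 per length was 10.3 times Tgfbr2 in Control 1 and 13.9 times in Control 2, with 9.22 times in NT4 1 and 10.3 times in NT4 2. The groups overlapped in this ratio, with Control 1 at 10.2625 and NT4 2 at 10.2632, and their means were 12.1 in Control and 9.74 in NT4. The split by library number was as large, with means of 9.74 for number 1 and 12.1 for number 2. Both libraries numbered 2 lay above both numbered 1, so group and number cannot be told apart in this ratio. With the mean transcript length the ratio was 20.1 rather than 10.9 over the libraries.

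Tgfb3 made up 73.7% and 80.1% of the summed ligand level per length in the Control libraries 1 and 2, and 73.7% and 75.7% in NT4 1 and NT4 2. Its share was higher in both libraries numbered 2 than in both numbered 1. Tgfb1 made up 17.5% to 22.9% and Tgfb2 2.25% to 4.11%. These shares depend on the length used. Tgfb3 fell to 62.8% with the longest transcripts and to 44.3% with the mean transcript length, below Tgfb1 at 50.1%, where Tgfb3 has 1 annotated transcript and Tgfb1 has 5, of 1237 bases on average against 5042 bases of joined exons.

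Smad3 per length was 1.63 times Smad2 in Control 1 and 1.64 times in NT4 1, but 3.72 times in Control 2 and 3.42 times in NT4 2. Smad3 itself varied by 1.11 times over the libraries and Smad2 by 2.26 times. Smad7 stood at 0.61 and 0.70 of Smad3 in Control 1 and Control 2, and at 0.54 and 0.65 in NT4 1 and NT4 2, so the groups overlapped. Smad4 was at 1.02 and 1.32 of the sum of Smad2 and Smad3 in Control 1 and Control 2, and at 1.02 and 1.27 in NT4 1 and NT4 2, and this mean of 1.16 was 0.82 with the mean transcript length. Ltbp1 was at 0.48 and 0.52 of the summed ligands in Control 1 and Control 2, and at 0.39 and 0.53 in NT4 1 and NT4 2. The mean of this Ltbp1 ratio over the libraries was 0.48, and it was 0.64 with the longest transcripts and 0.92 with the mean transcript length. The ratios of Smad7, Smad4 and Ltbp1 were each higher in both libraries numbered 2 than in both numbered 1.

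The other genes of the pathway were then counted in 5 lists. Of 72 tested, 0 passed an adjusted p of 0.05, 0 met the study's criterion, against 1.08% of all genes tested, and 3 had an unadjusted p under 0.05, against 1.99%. These 3 were all target genes. The split by library number was also counted in these lists. Both libraries numbered 1 were above both numbered 2 in 9 of 16 genes of latency and activation, 4 of 10 co-receptors and partners, 2 of 4 other SMADs, 10 of 18 SMAD regulators and 11 of 24 target genes, where 26.7% of all genes tested lay so. The opposite order was found in 1 SMAD regulator, 2 target genes and 0 genes of the other lists, where 21.8% of all genes tested lay so. Each of the 5 lists thus held a higher share of genes in the order of Smad2 than the transcriptome did, which is a description without a test.

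The genes of latency and activation numbered 17, of which 16 were tested and Itgb6 was left out by the filter on low counts. 12 had a fold change above 0 and 4 below, with a median of 0.09, which was 0.27 without NT4 2 and −0.03 without NT4 1. Thbs1 (thrombospondin 1, which can activate latent TGF-beta) was the most abundant, at 2365 ± 44 CPM in Control and 2033 ± 310 in NT4 (SD, n = 2 libraries), with a fold change of −0.20 (SE 0.12) that ran from −0.35 without NT4 1 to −0.07 without NT4 2. Itgb1, an integrin chain, was at 466 ± 36 and 486 ± 99 CPM, with 0.08 (SE 0.16), and its sign turned from −0.13 without NT4 1 to 0.25 without NT4 2. Ltbp2, a relative of Ltbp1, had the smallest p of the list, at 11.6 ± 0.94 CPM in Control and 16.8 ± 6.5 in NT4, where NT4 1 was at 21.4 and NT4 2 at 12.2 CPM, and a fold change of 0.55 (SE 0.29), which was 0.10 without NT4 1 and 0.88 without NT4 2.

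Of 10 co-receptors and receptor partners 4 were above 0 and 6 below, with a median of −0.04, which ran from −0.20 without NT4 1 to 0.01 without NT4 2. Strap, which binds both receptors, was at 215 ± 9.7 CPM in Control and 216 ± 11 in NT4 (SD, n = 2 libraries). Dab2, an adaptor of the receptors, was at 201 ± 4.1 and 192 ± 1.4 CPM. Fkbp1a, which holds TGFBR1 inactive, had the smallest p and a fold change of −0.44 (SE 0.29), and its 166 CPM in Control 2 stood above 90.1 in Control 1, 93.6 in NT4 1 and 92.9 in NT4 2. Without Control 2 the fold change was 0.08, and without Control 1 it was −0.82.

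Among the other SMADs, which serve or inhibit the BMP pathway, 2 were above 0 and 2 below, with a median of 0.0031 that ran from −0.24 without NT4 1 to 0.16 without NT4 2. Smad5 was at 122 CPM in Control 1, 117 in Control 2 and 109 in NT4 1, and at 47.7 in NT4 2. Its fold change of −0.59 (SE 0.37) moved to −0.13 when NT4 2 was left out and to −1.29 when NT4 1 was. Smad6, an inhibitory SMAD, was at 26.0 ± 4.4 CPM in Control and 27.4 ± 4.4 in NT4 (SD, n = 2 libraries).

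Of 19 SMAD regulators 18 were tested and Foxh1 was left out by the filter on low counts. 8 were above 0 and 10 below, with a median of −0.03 that ran from −0.15 without NT4 1 to 0.10 without NT4 2. The corepressor gene Ski was at 187 ± 16 CPM in Control and 175 ± 34 in NT4, and Tgif1, another corepressor, at 168 ± 11 and 155 ± 12 CPM (SD, n = 2 libraries). Tgif2 had the smallest p, with a fold change of −1.09 (SE 0.63), which was 0.10 without Control 2 and −1.73 without Control 1. Control 2 had 16.9 CPM, against 4.85 in Control 1, 6.63 in NT4 1 and 3.53 in NT4 2. It shares 56.6% of its exon length with a transcript on the other strand, so its counts are uncertain.

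Of the 24 target genes 19 were above 0 and 5 below, with a median of 0.23, where 51.0% of all genes tested were above 0. In 6 of 24 both NT4 libraries were above both Control libraries (11.9% of all genes), and in 0 of 24 both were below (14.6%). Il11, among the 6, was below the level of 3 read pairs in all libraries but NT4 2, so its order is uncertain. Both NT4 libraries were below in 3 of 10 co-receptors and partners, 1 of 4 other SMADs and 1 of 16 genes of latency and activation. They were above in 1 of 16 genes of latency and activation, 0 co-receptors and 0 other SMADs. Of SMAD regulators 0 of 18 lay either way. None of the 24 target genes passed the adjustment. Col4a1, a chain of basement membrane collagen, had the smallest p of the list. It stood at 545 and 487 CPM in the Control libraries 1 and 2, and at 740 and 649 CPM in NT4 1 and NT4 2, with a fold change of 0.45 (SE 0.12) and 0.9999 as its adjusted p by edgeR. The other 2 with an unadjusted p under 0.05, named after their values were seen, were Acta2 (0.44, SE 0.12), smooth muscle actin, and Col3a1 (0.37, SE 0.13), a fibrillar collagen. Col3a1 stood at 380 and 388 CPM in the Control libraries 1 and 2, and at 540 and 437 CPM in NT4 1 and NT4 2. Ccn2, a matricellular protein and textbook target, had means of 467 ± 62 CPM in Control and 468 ± 157 in NT4 (SD, n = 2 libraries), with a fold change of 0.02 (SE 0.24) that was −0.36 without NT4 1 and 0.31 without NT4 2. The median of the list was 0.09 without NT4 1 and 0.38 without Control 1.

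Theca and stroma markers lay on the same side as most target genes. Of 12, 12 had a fold change above 0, with a median of 0.38, and their sum was 683 CPM in Control 1 and 687 in Control 2 against 919 in NT4 1 and 837 in NT4 2. Dcn was at 53.3 and 47.6 CPM in Control and 64.6 and 65.7 CPM in NT4. In 8 of 12 both NT4 libraries were above both Control libraries (11.9% of all genes), and 4 of 12 had an unadjusted p under 0.05 (1.99% of all genes), while none passed the adjustment in edgeR's test. Acta2 is in both lists, and without it 18 of 23 target genes were above 0, with a median of 0.22. Leaving it out takes away the shared gene only, not any RNA of these cells in the other target genes. The part of these cells in the values of the target genes was not tested.

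**Figure D5:**
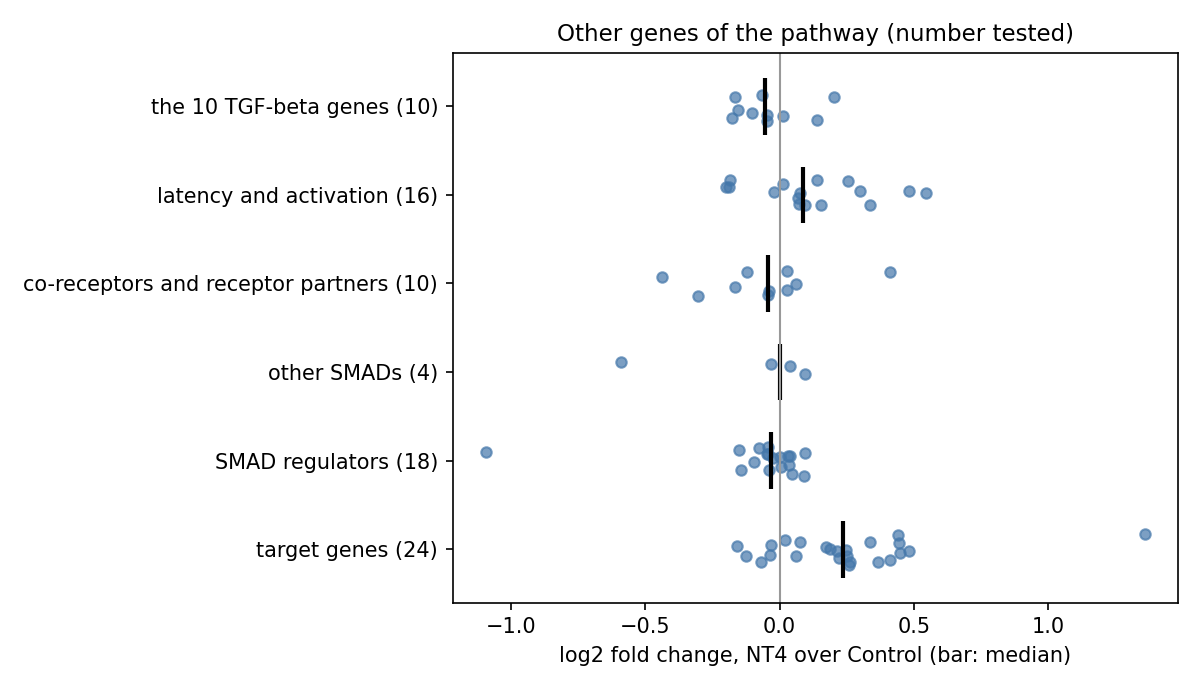
Log2 fold change of NT4 over Control (horizontal axis) for each gene tested, in the 10 TGF-beta genes and 5 lists of other pathway genes (number tested in parentheses; bars, medians; the vertical spread of points carries no value). Medians are near 0 but for the target genes at 0.23, and no gene passed the adjustment.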

How the data were processed

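GCs of 2 Control and 2 NT4 cultures had been sequenced after TRIzol extraction. The authors trimmed reads with Cutadapt, mapped them with HISAT2 (mm10 in the submitters' processing notes) and used StringTie with ballgown to assemble and quantify transcripts. What they deposited per gene are expected counts, estimated whole numbers without normalization. Whether counting used strand is not stated. That 1 read pair added about 4 counts was inferred from low counts, and the read pairs estimated below rest on it. The table of the series and the files of single libraries held identical counts in 4 of 4 libraries. The estimated 12380023 to 19676005 read pairs per library put a count of 0 at up to 0.152 to 0.242 CPM (3 read pairs), for counting error only.

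Groups came from the labels. Fold changes were tested in R 4.3.3 with edgeR 4.0.16 (quasi-likelihood, TMM, default filter on low counts, two-sided, Benjamini-Hochberg over 19259 genes, group alone in the model). The procedure was tested on simulated data. These had a smaller spread than the real libraries and larger changes than the 10 genes, so they do not show how well small changes are detected. With 2 libraries against 2, p-values rest on spread pooled across genes. Alternatives were DESeq2 1.42.0, edgeR's exact test, limma 3.58.1 voom, other scalings, filters and gene lengths, counts divided by 4, a replicate block and each library left out. Coordinates, exon lengths and overlaps came from GENCODE M21. Promoters were matched by symbol to RefSeq (GRCm38.p6), which gave 6 of the 7 genes outside chromosome 18, all but Tgfb3. Sequence of chromosome 18 is not used here. From each list of other pathway genes, the 2 with the highest mean CPM and the 1 with the smallest unadjusted p were named. The 10 genes, the 5 pathway lists and the 7 lists of cell type markers (1 of them not reported here) were chosen with earlier results of these data known, and the promoter patterns after the data were seen.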

Additional observations from a re-analysis of the deposited data

How the results depend on the processing

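None of the 10 TGF-beta genes was called in any of 140 refitted values, 100 from 10 alternative fits on all 4 libraries and 40 with a library left out. The smallest adjusted p was 0.910, with a library left out. On all 4 libraries 1 of 100 changed sign, Smad2 at −0.0052 with library totals in place of TMM. With a library left out 10 of 40 did. The ranges were −0.67 to 0.68 for Smad2, −0.47 to 0.19 for Ltbp1, −0.36 to 0.055 for Tgfb2, −0.28 to 0.22 for Tgfb3 and −0.094 to 0.33 for Tgfbr2. The other 5 kept their sign, namely Tgfb1 (0.10 to 0.29), Tgfbr1 (−0.30 to −0.03), Smad3 (−0.09 to −0.01), Smad4 (−0.11 to −0.02) and Smad7 (−0.31 to −0.04). A lone library was taken to have the spread of the other group. The cause of the changes of sign was not tested.

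Over all genes, the count at an adjusted p of 0.05 was 0, and it was 62 in the DESeq2 Wald test, 10 without the filter, 57 in edgeR's exact test and 0 to 37 with a library left out (12 without Control 1, 37 without Control 2). The study's criterion was met by 208 genes, and by 345 without the filter, 119 with counts divided by 4, 334 in the DESeq2 Wald test, 87 where a CPM of 1 in 2 libraries was required, and 341 to 512 with a library left out. The cause was not tested.

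The numbers 1 and 2 appear in both groups. The study describes groups cultured side by side and independent experiments behind the 2 samples of a group, but not that a number marks an experiment. Across genes, the deviations of libraries sharing a number had a Pearson correlation of 0.15 and a Spearman correlation of 0.26, and of 0.31 and 0.44 where mean log2 CPM exceeded 3 (10491 genes), which 2 numbers cannot settle. With the number as a replicate block 0 of the 10 genes and 0 of all genes passed the adjustment, 580 against 383 genes had an unadjusted p under 0.05 and 180 met the criterion. Smad2 was then at 0.0097 with a 95% confidence interval from −0.23 to 0.25 in place of −1.24 to 1.26, Ltbp1 at −0.12 and Tgfb1 at 0.20. With the block the interval of Smad2 was the narrowest of the 10 genes and that of Tgfb2 the widest (−0.70 to 0.37). None of the 10 genes was near the floor of detection, the lowest value being 266 counts of Tgfb2.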

Other observations

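A wide spread was also found in Skil, a corepressor gene of SMAD signalling and a target of the pathway, chosen after its values were seen because it varied most among the pathway genes at a mean of at least 20 CPM. It gave 118 CPM in Control 1 and 77.4 in Control 2, with 155 in NT4 1 and 35.8 in NT4 2. Its highest library was 4.32 times its lowest, and in each group the library numbered 1 was the higher, as for Smad2. The groups overlapped, with a log2 fold change of NT4 over Control of −0.02 (SE 0.65). Myc and Junb were also named after their values were seen. Myc, a target gene with the same order within the groups, stood at 121 and 82.4 CPM in the Control libraries 1 and 2, and at 128 and 68.2 CPM in NT4 1 and NT4 2. Both libraries numbered 1 were above both numbered 2 in 11 of 24 target genes and in 26.7% of all genes tested. Junb was lowest in Control 2, at 130 CPM, and highest in NT4 2, at 263 CPM.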
